A study of Mus musculus with 60 samples.

Results

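The genes of dopamine synthesis, transport and breakdown were followed across 3 brain regions of mice with and without the adhesion receptor gene Adgrl3. They are 6 of the 21950 protein-coding genes in the deposited count table and were taken by gene symbol, and each of the 6 had enough reads to be tested in every comparison. RNA sequencing covered hippocampus, prefrontal cortex and striatum of knockout mice (KO, genotype Adgrl3 -/-) and wild-type mice (WT, genotype Adgrl3 +/+), with 10 libraries per genotype and region and 60 in all. Adgrl3 encodes latrophilin-3, which is also named Lphn3. Total RNA came from regions dissected out of frozen brains of 12 mice per genotype, killed between postnatal days 65 and 76. The labels name no treatment, sex or litter, do not tie a library to a mouse, and do not say how the allele was made.

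Dopamine is made from tyrosine in 2 steps. Tyrosine hydroxylase (Th) makes L-DOPA, which is the rate-limiting step, and aromatic L-amino acid decarboxylase (Ddc) turns L-DOPA into dopamine. The vesicular monoamine transporter VMAT2 (Slc18a2) loads dopamine into vesicles, the plasma membrane dopamine transporter DAT (Slc6a3) takes it back up after release, and the mitochondrial monoamine oxidases A and B (Maoa and Maob) break it down. Most dopamine neurons that reach the striatum and the cortex have their cell bodies in the midbrain, outside the dissected regions, while the olfactory bulb in front of the prefrontal cortex holds dopamine interneurons of its own. Ddc, Slc18a2 and the oxidases also serve serotonin and noradrenaline neurons, and Maob is abundant in glia.

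The genes lie on 5 chromosomes of the mouse build GRCm38, and the counted feature is the whole gene, introns included. Th (ENSMUSG00000000214.11) spans chr7:142892752-142931128 on the minus strand, and Ddc (ENSMUSG00000020182.16) spans chr11:11814101-11898144 on the minus strand. Slc18a2 (ENSMUSG00000025094.7) spans chr19:59260878-59296012 and Slc6a3 (ENSMUSG00000021609.6) spans chr13:73536747-73578672, both on the plus strand. Maoa (ENSMUSG00000025037.6; chrX:16619698-16687818, plus strand) and Maob (ENSMUSG00000040147.14; chrX:16709282-16817366, minus strand) are neighbours on the X chromosome. In the GENCODE M21 annotation no gene on the same strand overlaps any of the 6. An antisense gene overlaps Ddc (1700042O10Rik) and another the start of Slc18a2 (Gm29261). Among gene pairs of the table of which one lies inside the other on the opposite strand, 82 of 222 had fewer reads in the outer than in the inner gene, against 0 of 493 pairs on the same strand, so the counts were split by strand.

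The promoters of Th, Slc6a3 and Slc18a2 are shown because these are the members with the largest KO and WT differences in prefrontal cortex or striatum. Each sequence runs from 250 bases before the RefSeq transcription start to the first 10 bases after it (RefSeq, GRCm38.p6), 5′ to 3′ on the gene's own strand. Capitals mark matches to the cyclic AMP response element (TGACGTCA, which reads the same on both strands) and to the GC box of Sp-family factors (GGGCGG, or CCGCCC on the other strand).
Th, chr7:142899986-142900245, minus strand: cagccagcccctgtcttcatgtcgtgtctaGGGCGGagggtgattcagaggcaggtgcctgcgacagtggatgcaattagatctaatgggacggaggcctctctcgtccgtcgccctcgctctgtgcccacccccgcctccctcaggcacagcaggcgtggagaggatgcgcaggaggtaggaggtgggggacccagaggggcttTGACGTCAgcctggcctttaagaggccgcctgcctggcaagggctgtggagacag
Slc6a3, chr13:73536497-73536756, plus strand: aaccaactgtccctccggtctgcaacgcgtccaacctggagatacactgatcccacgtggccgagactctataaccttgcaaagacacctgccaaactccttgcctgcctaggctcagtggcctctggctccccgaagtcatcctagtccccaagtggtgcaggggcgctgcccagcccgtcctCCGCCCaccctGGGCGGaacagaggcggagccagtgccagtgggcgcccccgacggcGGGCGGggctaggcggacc
Slc18a2, chr19:59260628-59260887, plus strand: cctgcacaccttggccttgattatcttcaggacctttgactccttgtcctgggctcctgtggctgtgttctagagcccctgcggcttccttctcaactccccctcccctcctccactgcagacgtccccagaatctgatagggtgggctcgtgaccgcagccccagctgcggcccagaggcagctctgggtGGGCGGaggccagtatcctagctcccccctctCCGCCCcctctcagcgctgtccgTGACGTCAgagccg

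The cyclic AMP response element began 45 bases before the start in Th and 4 bases before it in Slc18a2, where it crosses the start. Motifs were sought in the full RefSeq windows of 300 bases, which run on to 50 bases after the start, and no match in these 3 genes lay beyond the stretch printed. The cyclic AMP response element was in 1.79% of 32851 such windows. The GC box was in 35.658% of them and in all 3 sequences, with 3 matches in Slc6a3, 2 in Slc18a2 and 1 in Th. The letters AAAGGTCA (the element of the Nr4a family of nuclear receptors), TAATCC (bound by Pitx-type homeodomain factors) and TATAAA were sought on both strands as well and were in none of the 3. They were in 1.507%, 7.062% and 13.616% of all promoters. None of the matches found overlapped another, and no motif was tested for binding.

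Levels are given in CPM, which are read counts scaled to a common library size with TMM. Library totals lay between 38985577 and 51387833 reads. Maoa had 1046 to 1783 reads per library and Maob 916 to 1610, Ddc had 86 to 471 and Th 9 to 657. Slc18a2 had 2 to 150 reads and Slc6a3 3 to 381, so their levels carry the most counting error of the 6. Adgrl3, which checks the labels, lay lower in every KO library than in any WT library of its region, at a mean of 34.9, 35.2 and 41.8 CPM in KO hippocampus, prefrontal cortex and striatum against 125.2, 149 and 163 CPM in WT. All 7 striatal medium spiny neuron markers were called higher in WT striatum than in the other regions, and all 7 hippocampal markers lower in striatum than in hippocampus. In bulk tissue, fewer cells of a kind and less RNA per cell cannot be told apart.

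In WT brains the 6 genes had different regional patterns. Th was scarce in hippocampus and high in striatum and, together with olfactory bulb markers, in prefrontal cortex, Ddc was highest in striatum, Slc18a2 was highest in hippocampus, and Maoa and Maob were called in no contrast between WT regions. A gene was called between regions at an edgeR quasi-likelihood adjusted p under 0.05 (Benjamini-Hochberg over all genes tested) and a log2 difference of at least 1 in size. By that rule 2 of the 6 were called between striatum and hippocampus, where 10.2% of all genes were called. Between striatum and prefrontal cortex 2 were called against 11.6% of all genes, and between hippocampus and prefrontal cortex 3 were called against 10.1%.

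**Figure D1:**
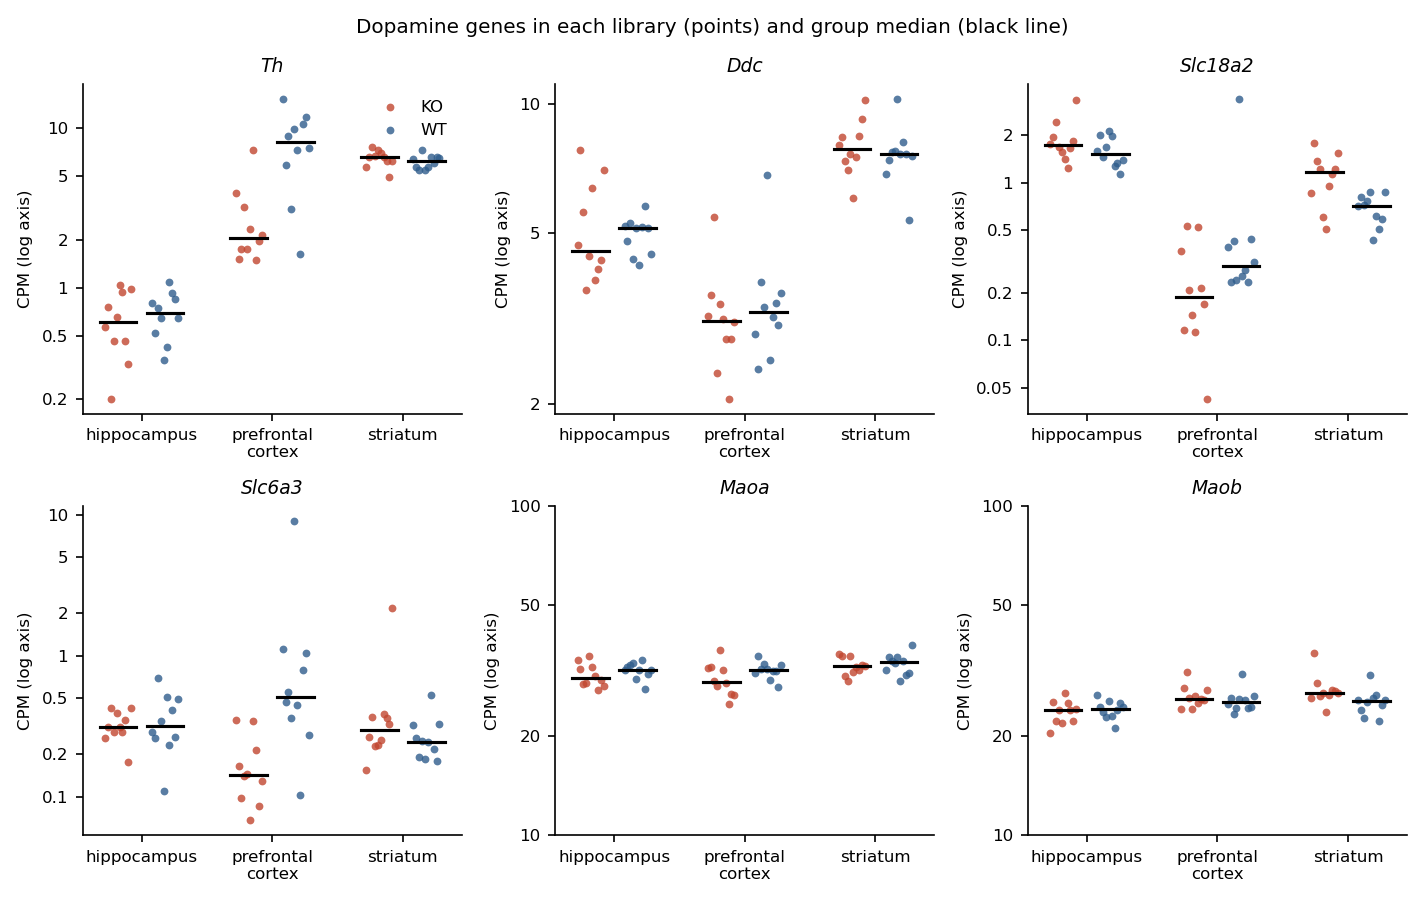
CPM (log axis) of the 6 genes in each of the 60 libraries, by region, with KO in red left of WT in blue; black lines are group medians over 10 libraries. Th spreads from 1.48 to 15.2 CPM in prefrontal cortex, and single high libraries stand out for Slc6a3 (9.01 CPM in a WT prefrontal cortex library and 2.17 CPM in a KO striatum library).

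Among the synthesis enzymes, Th in WT striatum had 5.44 CPM in the lowest library, a median of 6.23 and 7.32 in the highest, against 0.349, 0.697 and 1.09 CPM in WT hippocampus. No striatal library overlapped the hippocampal range, and Th was higher in striatum by 3.14 ± 0.28 (log2, SE; edgeR adjusted p = 2.17e-11). In WT prefrontal cortex Th ran from 1.63 CPM through a median of 8.21 to 15.2 CPM, also above the hippocampus throughout, and the hippocampus was lower by 3.55 on the log2 scale (-3.55 ± 0.28, edgeR adjusted p = 1.62e-12). Striatum and prefrontal cortex are neighbours in the order of Th levels and did not pass the test (-0.40 ± 0.23, 95% interval -0.87 to 0.07, edgeR adjusted p = 0.116). The level in prefrontal cortex moved with markers of the olfactory bulb, where other dopamine neurons lie. The 7 markers summed to 7.83 to 113 CPM in these WT libraries (median 57.3), against 10.2 to 15.4 CPM in WT striatum and 12.3 to 21.5 CPM in WT hippocampus, and WT replicate 7, with the lowest bulb sum, also had the lowest Th.

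Ddc had 5.37, 7.64 and 10.3 CPM (lowest, median and highest) in WT striatum, 4.22, 5.15 and 5.80 CPM in WT hippocampus and 2.42, 3.28 and 6.84 CPM in WT prefrontal cortex. The striatal range lay above most libraries of the other regions and overlapped both. Ddc was higher in striatum than in prefrontal cortex by 1.12 ± 0.13 (edgeR adjusted p = 2.41e-09). Striatum over hippocampus (0.62 ± 0.12, edgeR adjusted p = 5.67e-05) and hippocampus over prefrontal cortex (0.50 ± 0.13, edgeR adjusted p = 9.82e-04) had low p-values but differed by less than the log2 difference of 1 that a call needed.

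Of the transporters, Slc18a2 had 0.435, 0.714 and 0.877 CPM in WT striatum, 1.13, 1.52 and 2.12 CPM in WT hippocampus, and 0.234, 0.297 and 3.36 CPM in WT prefrontal cortex. The striatal and hippocampal libraries did not overlap, and Slc18a2 was lower in striatum (-1.21 ± 0.36, edgeR adjusted p = 0.00404) and higher in hippocampus than in prefrontal cortex (1.38 ± 0.36, edgeR adjusted p = 0.00127). The prefrontal cortex maximum came from replicate 5, and the other 9 libraries there had at most 0.439 CPM. Without the libraries numbered 5 in the 3 regions, Slc18a2 was also called between striatum and prefrontal cortex (1.09 ± 0.17, edgeR adjusted p = 1.11e-06, against 0.18 ± 0.39 with them).

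Slc6a3 was low in each region, with 0.179, 0.244 and 0.524 CPM in WT striatum, 0.109, 0.317 and 0.688 CPM in WT hippocampus, and 0.102, 0.511 and 9.01 CPM in WT prefrontal cortex. The 3 ranges overlapped. It was called lower in striatum than in prefrontal cortex (-2.36 ± 0.59, edgeR adjusted p = 7.07e-04) and lower in hippocampus than in prefrontal cortex (-1.95 ± 0.56, edgeR adjusted p = 0.00293). Replicate 5 weighed on these values too: without the libraries of that number the differences were -1.01 ± 0.31 (edgeR adjusted p = 0.00535) and -0.54 ± 0.30 (edgeR adjusted p = 0.108), and the second call was lost.

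For the oxidases the regional means lay close together. Maoa averaged 33.1 ± 2.43 CPM in WT striatum, 31.6 ± 1.82 CPM in WT hippocampus and 31.7 ± 1.88 CPM in WT prefrontal cortex (SD, n = 10 each). Maob averaged 25.4 ± 2.35, 24.1 ± 1.56 and 25.6 ± 2.04 CPM in the same order. The largest of the 6 log2 differences was -0.09 ± 0.05 (Maob, hippocampus minus prefrontal cortex), and the 95% intervals of the 6 lay between -0.19 and 0.18. In KO libraries Maob was 0.23 ± 0.06 (log2) higher in striatum than in hippocampus (edgeR adjusted p = 0.000916) and differed by -0.16 ± 0.06 between hippocampus and prefrontal cortex (edgeR adjusted p = 0.0125). Maoa was 0.13 ± 0.06 higher in KO striatum than in KO prefrontal cortex (edgeR adjusted p = 0.0422). All 3 values lay under the log2 size of 1 needed for a call between regions.

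The contrasts between regions were also fitted in KO brains. Th was higher in KO striatum than in KO hippocampus by 3.33 ± 0.27 (edgeR adjusted p = 2.97e-12), and lower in KO hippocampus than in KO prefrontal cortex (-2.10 ± 0.27, edgeR adjusted p = 6.06e-08). Slc18a2 was higher in KO hippocampus than in KO prefrontal cortex by 2.93 ± 0.29 (edgeR adjusted p = 1.84e-10). Between KO striatum and KO prefrontal cortex Th was higher in striatum by 1.24 ± 0.24 (edgeR adjusted p = 3.39e-05), Ddc by 1.32 ± 0.14 (edgeR adjusted p = 1.40e-09), Slc6a3 by 1.44 ± 0.40 (edgeR adjusted p = 0.00213) and Slc18a2 by 2.18 ± 0.29 (edgeR adjusted p = 7.73e-08). The Slc6a3 value includes KO replicate 10 of striatum, which had 2.17 CPM. The other 9 KO striatum libraries averaged 0.287 CPM, against 0.173 CPM in KO prefrontal cortex (n = 10). The contrast without that library was not tested. The olfactory bulb sum had a median of 9.14 CPM in KO prefrontal cortex and 10.5 CPM in KO striatum. The sign for Th and Slc6a3 was the opposite of that in WT brains, where Th had not passed the test. The difference between the genotypes in these contrasts is the interaction tested after the single regions.

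**Figure D2:**
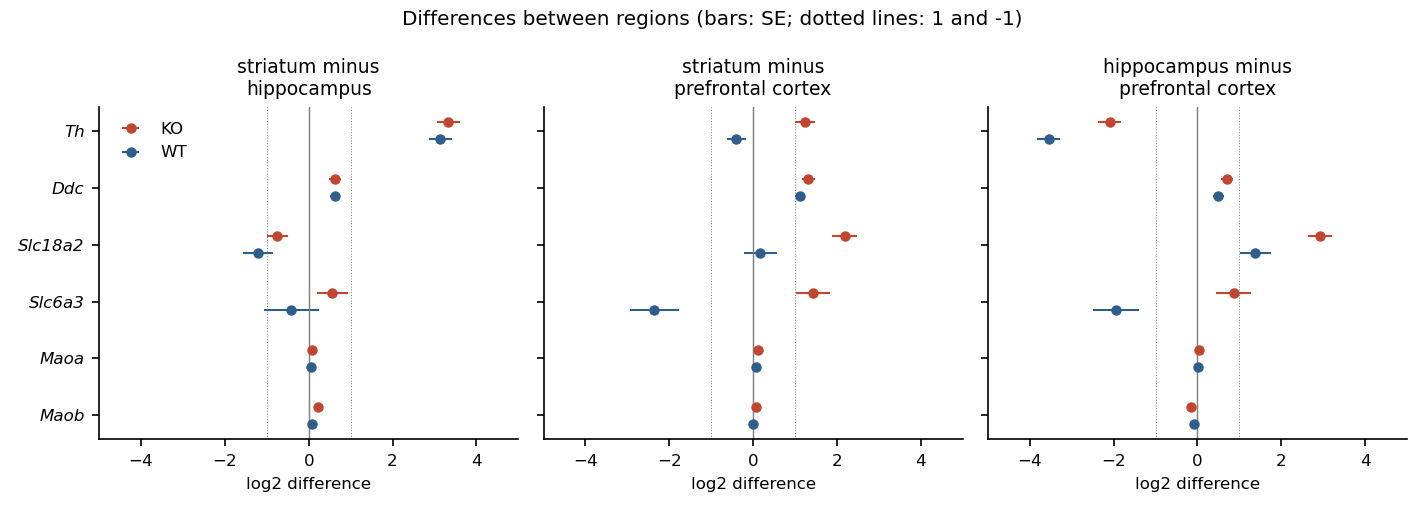
Fitted log2 differences between regions for the 6 genes in KO (red, upper point) and WT brains (blue, lower point), with SE bars; dotted lines mark the log2 difference of 1 that a call needed. In the striatum minus prefrontal cortex panel, Th lies at 1.24 in KO and -0.40 in WT and Slc6a3 at 1.44 in KO and -2.36 in WT. The Slc6a3 points include KO replicate 10 of striatum (2.17 CPM) and WT replicate 5 of prefrontal cortex (9.01 CPM).

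Between KO and WT mice, 0 of the 6 genes passed the test in any region at an edgeR quasi-likelihood adjusted p under 0.05. In hippocampus 0.128% of all tested genes were called, in prefrontal cortex 0.117% and in striatum 0.0514%. At an unadjusted p under 0.05 there were 0 of the 6 in hippocampus, 3 in prefrontal cortex (Th, Slc6a3 and Slc18a2) and 1 in striatum (Slc18a2), where 8.14%, 11.8% and 7.14% of all tested genes had such a p. DESeq2 called 0, 2 and 0 of them and limma voom with quality weights 0 in each region. Of all genes DESeq2 called 47, 222 and 28, against 20, 18 and 8 by edgeR. The median log2 difference of the 6 was -0.04 in hippocampus, -0.73 in prefrontal cortex and 0.10 in striatum, beside a median of all genes of 0.00 in each.

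In prefrontal cortex Th had 1.48 CPM in the lowest KO library, a median of 2.05 and 7.30 in the highest, against 1.63, 8.21 and 15.2 CPM in WT. All 10 KO libraries lay below the WT median, 7 of the 10 WT libraries lay above the highest KO library, and the groups overlapped through KO replicate 7 and WT replicates 2, 4 and 7. The difference was -1.58 ± 0.36 on the log2 scale (95% interval -2.32 to -0.83, edgeR adjusted p = 0.0892). It passed with DESeq2 (-1.58, adjusted p = 0.00551) and in an edgeR fit of all 60 libraries (-1.57, adjusted p = 4.74e-05), and in the edgeR fits without KO replicate 7 (-1.88, adjusted p = 0.0142) or without WT replicate 7 (-1.70, adjusted p = 0.0277).

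Th moved with markers of the olfactory bulb in this region. The 7 markers (Eomes, Tbx21, Doc2g, Cdhr1, Sp8, Scgn and Shisa3) summed to 6.12 to 59.9 CPM in KO prefrontal cortex, median 9.14, and to 7.83 to 113 CPM in WT, median 57.3. All 7 differed in the same direction, with a median of -1.72, and 1 was called, Scgn at -2.20 ± 0.44 (edgeR adjusted p = 0.0497). None of the 7 was at 0 in any prefrontal cortex library.

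Library by library the order was much the same for Th and the bulb markers. KO replicate 7 had the highest Th (7.30 CPM) and the highest bulb sum (59.9 CPM) of the KO group, and WT replicate 7 had the lowest of both in the WT group (1.63 CPM of Th and a bulb sum of 7.83 CPM). The 10 prefrontal cortex libraries with most Th were the 10 with the highest bulb sum. With the mean log2 CPM of the bulb markers as a covariate, the Th difference was -0.29 (edgeR adjusted p = 1), and 3 genes in all were called in place of 18. That score was -0.15 ± 1.14 in KO and 1.77 ± 1.20 in WT (SD, n = 10 each), so it differed with genotype and the covariate removes part of any genotype difference as well. How much of the Th difference came with bulb tissue was not tested.

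**Figure D3:**
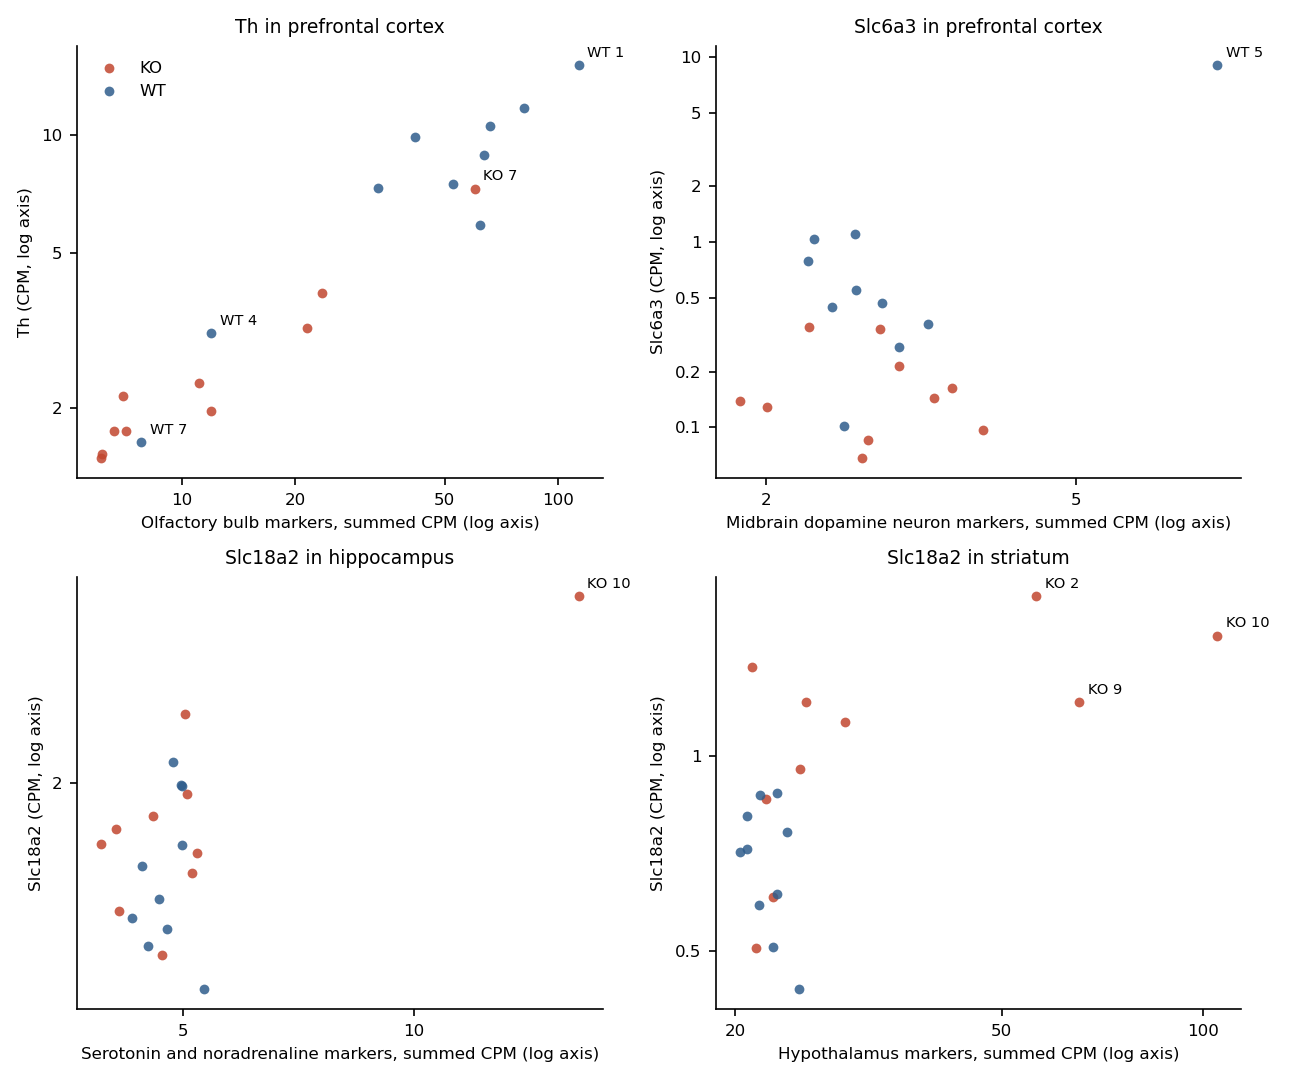
CPM of a dopamine gene (y, log axis) against the summed CPM of a marker list (x, log axis) in the 20 libraries of a region, KO in red and WT in blue, with the libraries named in the text labelled by genotype and replicate. Th rises with the olfactory bulb sum across both genotypes, WT replicate 5 stands alone for Slc6a3, KO replicate 10 stands alone for Slc18a2 in hippocampus, and KO replicates 2, 9 and 10 have the highest hypothalamus sums in striatum.

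Ddc, the second enzyme, had 2.06, 3.13 and 5.45 CPM (lowest, median and highest) in KO prefrontal cortex and 2.42, 3.28 and 6.84 CPM in WT. The ranges overlapped over most of their length, and the difference was -0.14 ± 0.17 (95% interval -0.50 to 0.21, edgeR adjusted p = 0.817). Without WT replicate 5 it was 0.01. The bulb covariate left it at -0.30 (edgeR adjusted p = 1).

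Slc6a3 in prefrontal cortex had 0.0681, 0.141 and 0.347 CPM in KO and 0.102, 0.511 and 9.01 CPM in WT. All 10 KO libraries lay below the WT median and 8 of the 10 WT libraries above the highest KO library. The difference was -2.99 ± 0.75 (95% interval -4.56 to -1.43, edgeR adjusted p = 0.107), and -1.70 ± 0.37 (edgeR adjusted p = 0.0699) without WT replicate 5. It passed with DESeq2 (-3.03, adjusted p = 0.00204) and in the edgeR fit of all 60 libraries (-2.995, adjusted p = 3.40e-04). DESeq2 replaced 0 counts of Slc6a3 here, so that of WT replicate 5 stayed in. The KO libraries held 3 to 17 reads of Slc6a3 each. Of the 10 libraries with most Slc6a3, 9 were also among the 10 with the highest bulb sum. The 7 alternative fits, apart from those that left a library out, gave differences from -3.03 to -2.01. Of these 7 fits 5 did not pass. How much of the Slc6a3 difference came with bulb tissue was not tested.

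Slc18a2 in prefrontal cortex had 0.0427, 0.189 and 0.533 CPM in KO and 0.234, 0.297 and 3.36 CPM in WT. The groups overlapped: 7 KO libraries lay below the lowest WT library and 3 above the WT median. The difference was -1.32 ± 0.57 (95% interval -2.50 to -0.14, edgeR adjusted p = 0.363) and -0.36 ± 0.32 (edgeR adjusted p = 0.771) without WT replicate 5. DESeq2 replaced the outlying count of that library and gave -0.34 (adjusted p = 0.784).

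WT replicate 5 of prefrontal cortex was the highest of its group for Slc6a3 (9.01 CPM), Slc18a2 (3.36 CPM) and Ddc (6.84 CPM), while its Th of 9.91 CPM was within the WT range. Its markers of midbrain dopamine neurons summed to 7.59 CPM, against 2.27 to 3.23 CPM in the other WT libraries and 1.85 to 3.80 CPM in KO. Of the 10 markers 7 were at their highest in the WT group there, among them the nicotinic receptor subunit gene Chrna6 (1.73 CPM against at most 0.392 CPM), Slc10a4 (1.18 against at most 0.340 CPM) and the transcription factor genes En1 (0.331 against at most 0.0602 CPM) and Foxa1 (0.166 against at most 0.0231 CPM). Foxa2 was at 0 in the other 9 WT libraries and at 0.0237 CPM here, and Pitx3, which defines midbrain dopamine neurons, was at 0.0237 CPM, inside the WT range of 0.0212 to 0.102 CPM. Tph2 and Slc6a4, both serotonin markers, were also at their WT maximum in this library. Tph2 had 1.159 CPM against at most 0.835 CPM in the other WT libraries, and Slc6a4 0.426 against at most 0.235 CPM. The KO maximum of Tph2 was higher (1.28 CPM) and that of Slc6a4 lower (0.191 CPM). Fev, another serotonin gene, had 0.071 CPM, below its WT maximum of 0.0803 CPM. The serotonin and noradrenaline list summed to 6.06 CPM, against at most 5.53 CPM in the other WT libraries and 5.76 CPM in KO. Of the 10 midbrain markers, 3 passed the filter on low counts in prefrontal cortex and 0 were called between KO and WT, with 1 at an unadjusted p under 0.05. Their part in the differences of Slc6a3, Slc18a2 and Ddc was not tested beyond leaving that library out.

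Neither oxidase passed the test between the genotypes in prefrontal cortex, and the groups overlapped for both. Maoa had 25.0, 29.2 and 36.6 CPM (lowest, median and highest) in KO and 28.1, 31.7 and 34.9 CPM in WT, with a difference of -0.09 ± 0.06 (95% interval -0.21 to 0.02, edgeR adjusted p = 0.556). Maob had 24.2, 26.0 and 31.3 CPM in KO and 23.4, 25.4 and 30.8 CPM in WT, with a difference of 0.04 ± 0.05 (95% interval -0.06 to 0.14, edgeR adjusted p = 0.829).

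**Figure D4:**
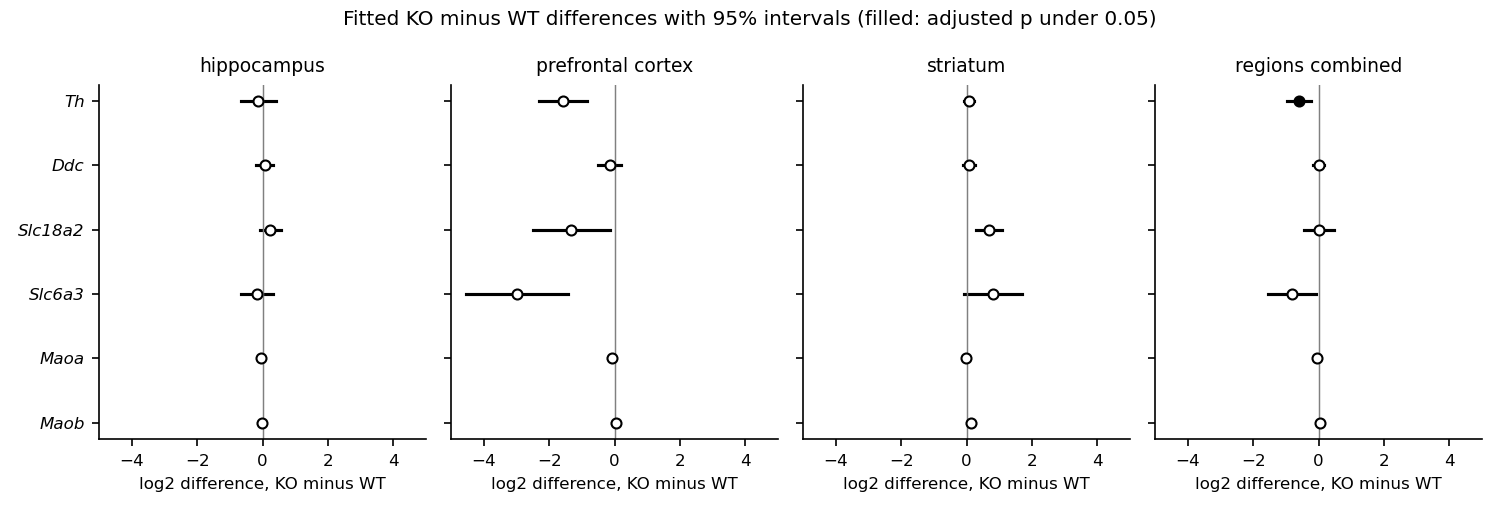
Fitted log2 differences, KO minus WT, of the 6 genes in hippocampus, prefrontal cortex, striatum and the 3 regions combined, with 95% intervals; filled points passed the test. Only Th in the combined comparison is filled (-0.59), and the intervals of Maoa and Maob stay within 0.25 of 0 in each panel.

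In striatum, where dopamine input is densest, Th lay close together in both genotypes, with 4.92, 6.60 and 7.61 CPM in KO and 5.44, 6.23 and 7.32 CPM in WT. The ranges overlapped nearly in full and the difference was 0.07 ± 0.07 (95% interval -0.08 to 0.22, edgeR adjusted p = 0.828). Ddc had 6.05, 7.85 and 10.2 CPM in KO and 5.37, 7.64 and 10.3 CPM in WT, with a difference of 0.07 ± 0.09 (95% interval -0.12 to 0.26, edgeR adjusted p = 0.872). The 5 striatum libraries with most Ddc, over both genotypes, were the 5 with the highest sum of thalamus markers. For hypothalamus markers 4 of the 5 were shared. Of the 10 with most Ddc, 6 were shared for thalamus and 7 for hypothalamus markers. Without KO replicates 2, 9 and 10 the Ddc difference was -0.03. The part of these tissues in the Ddc levels was not tested beyond that.

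Slc18a2 had the smallest p of the 6 in striatum. It had 0.504, 1.17 and 1.77 CPM in KO and 0.435, 0.714 and 0.877 CPM in WT, and 7 of the 10 KO libraries lay above the highest WT library. The difference was 0.69 ± 0.19 (95% interval 0.29 to 1.10, unadjusted p = 0.00159, edgeR adjusted p = 0.449). The KO libraries held 22 to 80 reads of the gene and the WT libraries 18 to 40.

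The KO striatum libraries of replicates 2, 9 and 10 had the highest sums of hypothalamus markers. The 10 markers summed to 56.3, 65.2 and 104.9 CPM in these, against 21.2 to 29.1 CPM in the other KO libraries and 20.3 to 24.9 CPM in WT. The neuropeptide gene Pmch stood at 28.0 CPM in replicate 9 and 52.9 CPM in replicate 10, against at most 0.567 CPM in WT, and Oxt at 19.2 CPM in replicate 2, against at most 0.271 CPM in WT. Pmch was at 0.133 CPM in replicate 2. Agrp, at 14.5, 14.8 and 14.1 CPM in the 3 libraries, lay inside the KO range of 13.8 to 16.6 CPM. Sim1 was at 0 in 2 KO and 2 WT libraries. It was highest in WT replicates 2 (1.25 CPM) and 1 (0.581 CPM). In KO replicates 2, 9 and 10 Sim1 had 0.532, 0.432 and 0.564 CPM, the KO maximum. Of the 10 markers 5 passed the filter on low counts, 4 of them on the higher side with a median of 0.25 over the 5, and edgeR called 0, with 1 at an unadjusted p under 0.05. Without these 3 libraries Slc18a2 differed by 0.46 ± 0.19 (unadjusted p = 0.0274, edgeR adjusted p = 1).

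Markers of the thalamus were read beside Slc18a2 in striatum as well. The 5 markers summed to 329, 302, 294 and 436 CPM in KO replicates 2, 8, 9 and 10, against 89.2 to 153 CPM in the other KO libraries, and to 292, 301 and 269 CPM in WT replicates 3, 5 and 6, against 97.2 to 119 CPM in the other WT libraries. Of the 10 striatum libraries with most Slc18a2, 7 were among the 10 with the highest thalamus sum, and likewise 7 for the hypothalamus sum. For the midbrain dopamine neuron sum 7 were shared too. Of the 5 with most Slc18a2, 3, 4 and 1 were shared in the same order. No WT library, replicates 3, 5 and 6 included, exceeded 0.877 CPM of Slc18a2. KO replicates 3 and 4 had 1.37 and 1.22 CPM of it with thalamus sums of 102 and 144 CPM. All 5 thalamus markers were tested and lay on the higher side in KO, with a median of 0.37, and edgeR called 0, with 0 at an unadjusted p under 0.05. Without the 7 libraries of either genotype with a thalamus sum over 200 CPM, Slc18a2 differed by 0.40 ± 0.22 (unadjusted p = 0.0923, edgeR adjusted p = 1). The part of both tissues in the result beyond these fits was not tested.

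Slc6a3 in striatum had 0.154, 0.298 and 2.17 CPM in KO and 0.179, 0.244 and 0.524 CPM in WT. The KO maximum was replicate 10, which had the highest hypothalamus sum, and the other 9 KO libraries reached at most 0.387 CPM, below the WT maximum. The difference was 0.81 ± 0.43 (95% interval -0.08 to 1.70, edgeR adjusted p = 0.708), and 0.08 ± 0.22 (edgeR adjusted p = 0.990) without KO replicate 10. Without the 7 libraries of high thalamus sum, that one among them, it was -0.15 ± 0.28 (edgeR adjusted p = 1). DESeq2 replaced the count of that library and gave 0.07. Its midbrain dopamine neuron markers summed to 17.7 CPM, inside the KO range of 14.6 to 21.2 CPM, to which Slc10a4 gave the most. Chrna6 (0.564 CPM) and Foxa1 (0.412 CPM) were at their highest in the KO group there. The other markers of the list lay below their KO maximum, such as Chrnb3 (1.19 against 2.26 CPM) and En1 (0.0217 against 0.0881 CPM). Slc10a4 had 13.3 CPM, against a KO mean of 15.1 CPM.

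**Figure D5:**
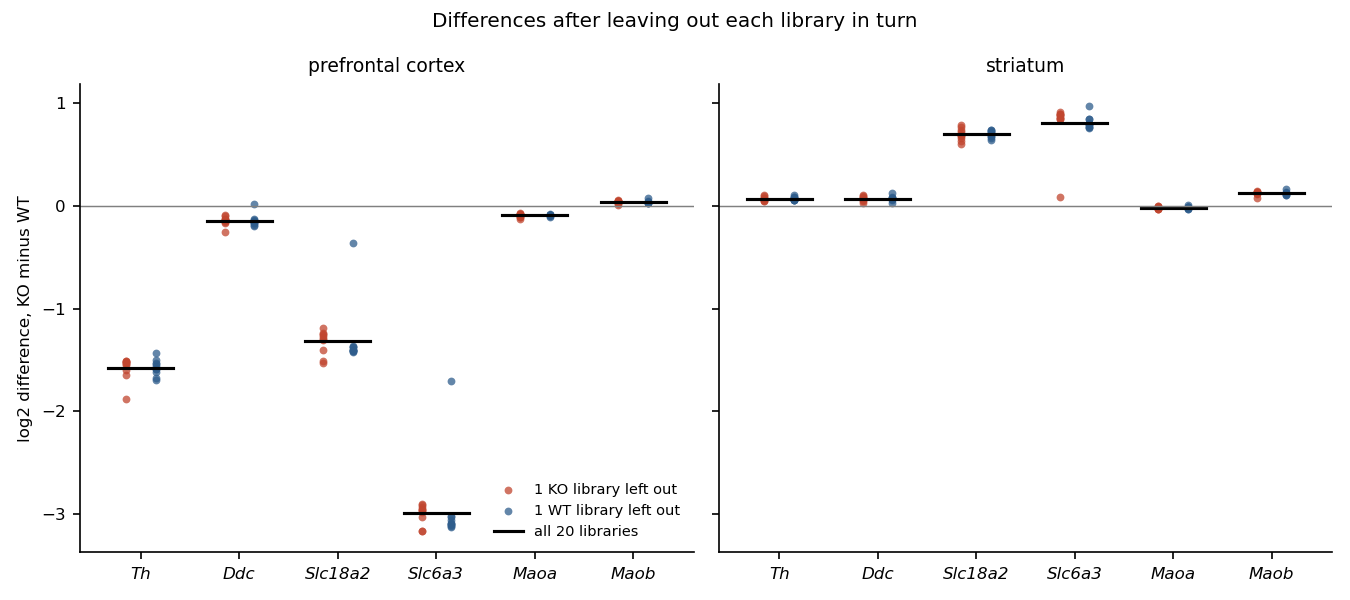
Log2 difference, KO minus WT, of the 6 genes in prefrontal cortex and striatum after leaving out each library in turn (red, a KO library left out; blue, a WT library left out); the black line is the value with all 20 libraries. In prefrontal cortex the points for Slc6a3 (-1.70) and Slc18a2 (-0.36) that lie apart leave out WT replicate 5, and in striatum the point for Slc6a3 (0.08) leaves out KO replicate 10.

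Of the oxidases in striatum, Maoa had 29.3, 32.6 and 35.6 CPM in KO and 29.4, 33.5 and 37.8 CPM in WT, a difference of -0.02 ± 0.04 (95% interval -0.11 to 0.07, edgeR adjusted p = 0.933). Maob had 23.7, 27.0 and 35.7 CPM in KO and 22.3, 25.6 and 30.8 CPM in WT, a difference of 0.12 ± 0.06 (95% interval -0.00 to 0.25, edgeR adjusted p = 0.700). Its ranges overlapped, with 9 of the 10 KO libraries above the WT median. KO replicate 2 had the most Maob of all striatum libraries together with the highest ependymal sum, 38.1 CPM over 5 markers against 11.2 to 21.7 CPM in the other KO libraries and 8.63 to 22.8 CPM in WT. Without KO replicate 2 the Maob difference was 0.08 ± 0.05 (edgeR adjusted p = 0.739). The 5 ependymal markers had a median of 0.36 in KO striatum, with Rsph1 at 0.00, and 0 were called or had an unadjusted p under 0.05 in edgeR. KO replicate 2 stood apart for Ccdc153 (6.25 CPM against at most 2.48 CPM in the other KO libraries) and Tmem212 (5.65 against at most 1.87 CPM). The same library had the most Tcf7l2 (38.4 CPM) and Slc17a6 (74.6 CPM), both on the thalamus list, of all striatum libraries. Of the 5 striatum libraries with most Maob, 4 were among the 5 with the highest thalamus sum, 3 for the hypothalamus sum and 2 for the ependymal sum. Without the 7 libraries of high thalamus sum the Maob difference was 0.08 ± 0.05 (edgeR adjusted p = 1). The part of these markers in the Maob result was not tested beyond that.

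In hippocampus the largest difference was that of Slc18a2, which had 1.24, 1.72 and 3.34 CPM in KO and 1.13, 1.52 and 2.12 CPM in WT. The groups overlapped, with 2 KO libraries above the highest WT library, and the difference was 0.24 ± 0.16 (95% interval -0.09 to 0.56, edgeR adjusted p = 0.717). Th had 0.201, 0.607 and 1.03 CPM in KO and 0.349, 0.697 and 1.09 CPM in WT (-0.12 ± 0.25, 95% interval -0.65 to 0.40, edgeR adjusted p = 0.929). The ranges of Th overlapped, with 2 KO libraries below the lowest WT library.

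Ddc in hippocampus had 3.69, 4.55 and 7.83 CPM in KO and 4.22, 5.15 and 5.80 CPM in WT (0.07 ± 0.12, 95% interval -0.19 to 0.32, edgeR adjusted p = 0.918), with 3 KO libraries below and 3 above every WT library. Of those 3 above, KO replicates 2 and 6 (7.83 and 6.39 CPM of Ddc) also had the highest sums of the KO group for choroid plexus (3064 and 2638 CPM), ependymal (45.8 and 44.0 CPM) and striatal markers (368 and 231 CPM), against KO medians of 421, 13.02 and 141 CPM and WT medians of 1497, 28.3 and 132 CPM. Of the 10 hippocampus libraries with most Ddc, 8 were among the 10 with the highest choroid plexus sum. The part of these markers in the Ddc levels was not tested. Slc6a3 had 0.176, 0.310 and 0.425 CPM in KO and 0.109, 0.317 and 0.688 CPM in WT (-0.17 ± 0.24, 95% interval -0.66 to 0.32, edgeR adjusted p = 0.889), and its ranges overlapped. For the oxidases the overlap was nearly full. Maoa had 27.6 to 35.0 CPM in KO and 27.9 to 34.1 CPM in WT (-0.04 ± 0.04, 95% interval -0.13 to 0.05, edgeR adjusted p = 0.827), and Maob 20.4 to 27.0 CPM in KO and 21.2 to 26.7 CPM in WT (-0.03 ± 0.05, 95% interval -0.13 to 0.07, edgeR adjusted p = 0.916).

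KO replicate 10 of hippocampus, with the Slc18a2 maximum of 3.34 CPM, also had the highest serotonin neuron markers. The 9 serotonin and noradrenaline markers summed to 16.4 CPM there, against 3.91 to 5.21 CPM in the other KO libraries and 4.29 to 5.33 CPM in WT. The serotonin genes Tph2 (7.71 CPM, against at most 1.61 CPM in the other KO libraries), Slc6a4 (4.37 against at most 0.179 CPM) and Fev (0.267 against at most 0.0650 CPM) stood apart, while the noradrenaline marker Dbh was at its KO minimum of 0.156 CPM. The Ddc level of the library was 7.02 CPM, second to the 7.83 CPM of KO replicate 2, and its Th (0.980 CPM) and Slc6a3 (0.423 CPM) were inside the range of the other KO libraries. Without it KO libraries averaged 1.72 ± 0.34 CPM of Slc18a2 (SD, n = 9), against 1.88 ± 0.60 CPM with it (n = 10) and 1.59 ± 0.34 CPM in WT (n = 10), and the log2 difference was 0.11 ± 0.13 (edgeR adjusted p = 0.916). The part of serotonin neuron RNA in the result was not tested beyond that.

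Over the 3 regions combined, with region as a term in the fit, Th fell in KO mice by 0.59 on the log2 scale (-0.59 ± 0.18, 95% interval -0.95 to -0.23, edgeR adjusted p = 0.0466). It was 1 of the 6 called, where 4.06% of all genes tested were called in either direction and 1.90% lower. The 7 olfactory bulb markers had a median of -0.69 here, and 1 of them was called, Tbx21 at -1.09 (edgeR adjusted p = 0.0103). The regions entered it unequally, since Th differed by -0.12 in hippocampus, -1.58 in prefrontal cortex and 0.07 in striatum. The call was narrow: it was lost with no filter on low counts (edgeR adjusted p = 0.0608) and in 11 of the 20 fits that left out the libraries of 1 genotype and number, where the difference ran from -0.70 to -0.53 and the adjusted p reached 0.111. With 12 mice per genotype and 30 libraries, some libraries share a mouse, and the fit treats them as independent, so its p-values may be too small. Slc6a3 differed by -0.81 ± 0.36 (edgeR adjusted p = 0.211), Maoa by -0.05 ± 0.03, Maob by 0.05 ± 0.03, Ddc by 0.00 ± 0.08 and Slc18a2 by 0.01 ± 0.23.

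Whether the KO minus WT difference itself varied between regions was tested with both interaction terms together. The test called Slc6a3 (edgeR adjusted p = 0.0472), 1 of the 6, where 0.0248% of all genes were called. Its KO minus WT difference in prefrontal cortex was lower than that in striatum by 3.80 (-3.80 ± 0.73) and than that in hippocampus by 2.83 (-2.83 ± 0.74). Th just missed the threshold (edgeR adjusted p = 0.0545), at -1.64 ± 0.34 against striatum and -1.45 ± 0.39 against hippocampus. Of the olfactory bulb markers the test called Scgn (edgeR adjusted p = 0.0235). Slc18a2 (edgeR adjusted p = 0.320) and Ddc, Maoa and Maob (edgeR adjusted p = 1 each) did not pass. Some libraries share a mouse in this test too, and the fit treats them as independent. With the replicate number as a block the call of Slc6a3 was lost (edgeR adjusted p = 0.318). With RLE scaling in place of TMM it was also lost (edgeR adjusted p = 0.0507). Without the prefrontal cortex library WT replicate 5 it was lost as well (edgeR adjusted p = 0.102), at -2.50 ± 0.52 and -1.53 ± 0.52. For Slc18a2 the difference against striatum was -1.05 ± 0.35 without that library and -2.01 ± 0.50 with it.

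The genes around the pathway were read from lists chosen with earlier results known. Tyrosine hydroxylase needs tetrahydrobiopterin, and of 7 genes that make or recycle this cofactor 6 were tested. In hippocampus, prefrontal cortex, striatum and the combined comparison 0 of the 6 were called, and 0 had an unadjusted p under 0.05 in edgeR. In hippocampus the smallest p-values were those of Gch1, its first enzyme (-0.16 ± 0.13), and Qdpr, a recycling enzyme (-0.09 ± 0.09). In prefrontal cortex Spr, its last enzyme, differed by 0.07 ± 0.06. In striatum the smallest p-values were those of Pts, its second enzyme (0.06 ± 0.05), and Pcbd1 (0.22 ± 0.16), and in the combined comparison those of Pts (0.05 ± 0.03) and Spr (0.04 ± 0.03). Between regions in WT brains, 1 of the 6 was called, Qdpr, which was higher in striatum than in prefrontal cortex by 1.15 ± 0.07 (edgeR adjusted p = 2.35e-15). Of all genes 11.6% were called in that contrast.

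Of 18 genes of monoamine synthesis, transport and breakdown outside the 6, between 14 and 15 were tested in each KO and WT comparison and 0 were called by edgeR. At an unadjusted p under 0.05 there were 1 in hippocampus, 0 in prefrontal cortex, 0 in striatum and 3 in the combined comparison. Of all tested genes 8.14%, 11.8%, 7.14% and 18.5% had such a p, in the same order. Tph2, the serotonin synthesis enzyme of the brain, had the smallest p in hippocampus (0.78 ± 0.37, edgeR adjusted p = 0.610), with its maximum in KO replicate 10, followed by Aldh9a1 (-0.05 ± 0.03). In prefrontal cortex the smallest p-values were those of the organic cation transporter gene Slc22a3 (0.20 ± 0.13) and the aldose reductase gene Akr1b3 (-0.06 ± 0.04). In striatum they were those of the histamine-degrading enzyme gene Hnmt (0.09 ± 0.05) and Akr1b3 (-0.05 ± 0.03), and in the combined comparison those of the sulfotransferase gene Sult1a1 (-0.22 ± 0.10, edgeR adjusted p = 0.227) and Akr1b3 (-0.04 ± 0.02). In the interaction test 0 genes of either list were called or had an unadjusted p under 0.05.

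Some genes of the same list differed between regions in WT brains. Between striatum and hippocampus 4 of 15 were called, where 10.2% of all genes were called. In each contrast with prefrontal cortex 5 of 15 were called, against 11.6% of all genes for striatum and 10.1% for hippocampus. Slc22a3, a low-affinity transporter that takes up monoamines outside the synapse, was higher in striatum than in hippocampus by 3.43 ± 0.15, and Pnmt, which turns noradrenaline into adrenaline, by 3.12 ± 0.28. The plasma membrane monoamine transporter gene Slc29a4 was lower in striatum by 1.77 (-1.77 ± 0.11), and Dbh, which turns dopamine into noradrenaline, by 1.25 (-1.25 ± 0.24). Slc22a3 was higher in striatum than in prefrontal cortex by 2.42 ± 0.14 and Pnmt by 1.94 ± 0.25, and Slc29a4 was higher in hippocampus than in prefrontal cortex by 2.37 ± 0.11. Aldh1a1, an aldehyde dehydrogenase gene of dopamine neurons, was higher than in prefrontal cortex by 1.44 ± 0.10 in striatum and 1.35 ± 0.10 in hippocampus. Hdc, which makes histamine, was higher than in prefrontal cortex by 2.37 ± 0.22 in striatum and 2.88 ± 0.22 in hippocampus. The highest edgeR adjusted p among these values was 2.43e-05 (Dbh).

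Among themselves the 6 genes moved together in part. After subtraction of each group's mean log2 CPM, Pearson's r over the 60 libraries was 0.58 between Slc6a3 and Slc18a2, 0.51 between Ddc and Slc18a2, 0.44 between Th and Slc6a3, and between -0.08 and 0.34 for the pairs not named here. These r describe libraries that share mice and dissections. Maoa and Maob, which share a locus, had r = -0.05.

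Of 14881 genes, those most like Slc18a2 over the 60 libraries were Slc10a4, a vesicle-associated carrier gene of monoamine and cholinergic neurons (r = 0.60), and then Slc6a3. For Ddc they were Oxsr1 (0.58) and Slc10a4 (0.57), and for Maoa Tfrc (0.72) and Cirbp (0.72). Maob was most like Clu, an astrocyte gene (0.65), Fam183b (0.63) and Rarres2 (0.61). Th over the 60 libraries was most like Nudt8 (0.78) and Doc2g (0.76), and within prefrontal cortex, over 20 libraries, like Trh (0.96), Doc2g (0.95), Cdhr1 (0.94), Aqp1 (0.93) and Nudt8 (0.92). Doc2g and Cdhr1 are on the olfactory bulb list. In striatum the gene most like Th was Sox21 (0.78) and in hippocampus Nxph4 (0.89), so a different gene led in each region.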

How the data were processed

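Total RNA libraries of 3 regions and 2 genotypes were read from 1 table of raw read counts per gene, deposited by the authors (21950 protein-coding genes, 60 libraries, 265 genes with 0 reads throughout). The submitters' processing notes list build GRCm38, the aligner STAR 2.5.2b, DESeq2 1.16.1, the trimmer cutadapt 1.16, FastQC 0.11.4 and bedtools, with no order of steps. No label ties libraries to mice, so p-values measure the spread between libraries.

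Counts were tested with edgeR 4.0.16 (R 4.3.3): TMM scaling, filterByExpr, robust quasi-likelihood F tests, Benjamini-Hochberg adjustment over all genes tested and a threshold of 0.05. Genotypes were compared within each region, over the regions with region as a term, and by interaction. Regions were compared in WT, with a log2 difference of at least 1 as well. SE was |log2 difference| over the square root of F. Alternatives used DESeq2 1.42.0, limma 3.58.1, other filters and scaling, and each library left out. Sums and figures were made with Python 3.11.15, pandas 2.3.3 and matplotlib 3.10.9. The code was tested on simulated data. No pair of libraries within a group agreed within sampling noise (270 pairs, chi-square per degree of freedom of 5.56 or more).

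The members, the marker and pathway lists and the tests were chosen with earlier results of these data known. Named genes were the 6 members throughout, Adgrl3, list genes that passed or otherwise had the 2 smallest p-values, at most 4 per list for regions, and the genes of highest correlation with a member over genes with a mean of at least 0.5 CPM (log2 CPM with a prior count of 2, group means subtracted). Marker genes were read beside results, and labelled libraries were singled out after their values were seen. Values of some single genes on the lists are not reported here.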

Additional observations from a re-analysis of the deposited data

Results flagged for a closer look

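In 36 groups of 10 libraries (6 genes, 6 groups each), 11 had a highest library set apart from the rest by more than Dixon's 95% critical value, and 0 had such a lowest library. Chance flags about 1 in 20 groups of normally distributed values. The rule was applied to CPM, which were not tested for normality, so the 11 cannot be measured against that rate. In prefrontal cortex these were Th in KO replicate 7 (7.30 CPM), Ddc in KO replicate 3 (5.45 CPM) and in WT replicate 5 (6.84 CPM), Slc6a3 and Slc18a2 in WT replicate 5 (9.01 and 3.36 CPM), and Maob in KO replicate 3 (31.3 CPM) and in WT replicate 6 (30.8 CPM). In striatum they were Slc6a3 in KO replicate 10 (2.17 CPM) and in WT replicate 7 (0.524 CPM), and Maob in KO replicate 2 (35.7 CPM) and in WT replicate 5 (30.8 CPM). WT replicate 5 of prefrontal cortex accounts for 3 of the 11, and KO replicate 3 of prefrontal cortex for 2.

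The genotype difference of Slc6a3 varied between regions by the interaction test (edgeR adjusted p = 0.0472). The interaction did not pass without WT replicate 5 of prefrontal cortex (edgeR adjusted p = 0.102) or with RLE scaling (edgeR adjusted p = 0.0507). With the replicate number as a block it did not pass either (edgeR adjusted p = 0.318).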

How the results depend on the processing

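Of 961 alternative values of the members, 887 kept direction and side of the threshold, 20 lost and 8 gained a call, and 46 changed sign. The cause of these changes was not tested. Sign changes of log2 differences were Ddc in hippocampus with voom (-0.034) and in striatum without the 3 KO libraries (-0.034), Slc6a3 in striatum without the 7 libraries of high thalamus sum (-0.15), and Maob in prefrontal cortex with the bulb covariate (-0.017). Maoa between hippocampus and prefrontal cortex was -0.013 with DESeq2, -0.013 with RLE scaling, -0.006793 with no filter and -0.006062 with a filter of 1 CPM in 10 libraries. In KO rather than WT libraries, Slc6a3 was 0.57 between striatum and hippocampus, 1.44 between striatum and prefrontal cortex and 0.87 between hippocampus and prefrontal cortex. Both contrasts with striatum include KO replicate 10 of that region. Th was 1.24 and Maob 0.062 between KO striatum and KO prefrontal cortex. Leaving out libraries in turn gave -0.017 to 0.11 for Ddc in hippocampus, -0.26 to 0.012 for Ddc in prefrontal cortex, -0.033 to 0.0066 for Maoa in striatum, -0.035 to 0.074 for Ddc and -0.054 to 0.30 for Slc18a2 in the combined comparison, -0.011 to 0.021 for Maoa between hippocampus and prefrontal cortex, and -0.043 to 0.019 for Maob between striatum and prefrontal cortex.

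The genes called in hippocampus (20) were 47 with DESeq2 and 12 to 26 with a library left out. Those in prefrontal cortex (18) were 222 with DESeq2, 55 with voom, 208 in the fit of 60 libraries, 3 with the bulb covariate and 9 to 68 with a library left out. Those in striatum (8) were 28 with DESeq2, 22 in the fit of 60 libraries and 5 to 15 with a library left out. Those in the combined comparison (649) were 27 with counts summed per genotype and replicate number and 311 to 1133 with libraries left out. The interaction (4 genes) gave 1 with RLE scaling and 1 with the 1 CPM filter. Members called in prefrontal cortex were 2 with DESeq2, 2 in the fit of 60 libraries and 0 to 1 with a library left out. In the combined comparison they were 0 with no filter, 0 with summed counts and 0 to 1 with libraries left out, and in the interaction 0 with RLE scaling, 0 with the 1 CPM filter (which removed Slc6a3) and 0 without WT replicate 5. Between striatum and prefrontal cortex 1 was called with the 1 CPM filter and 4 in KO libraries, and between striatum and hippocampus 1 in KO libraries. Leaving out the 3 KO striatum libraries or the 7 of high thalamus sum, summing counts, and leaving WT replicate 5 out of the interaction were chosen after seeing the data.

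Same-numbered KO and WT libraries deviated together (r over 0.1) in only 2, 3 and 2 of 10 pairs in hippocampus, prefrontal cortex and striatum. KO and WT were therefore not paired by number. KO and WT mice differ, so that check cannot show whether a number marks the same mouse across regions. Across regions of a genotype, 28 of 30 KO and 28 of 30 WT pairs did, and the best match had the same number in 106 of 120 cases. That is a hint from the data that a number may mark a mouse. No label says so, and the main fits used the numbers as names only. With the replicate block the genes called were 5, 10, 3, 1048 and 0 in hippocampus, prefrontal cortex, striatum, the combined comparison and the interaction. The members called were 0 in the combined comparison (Th -0.60, edgeR adjusted p = 0.05) and 0 in the interaction (Slc6a3, edgeR adjusted p = 0.318), and Slc6a3 between hippocampus and prefrontal cortex lost its call (-1.20, edgeR adjusted p = 0.0548).

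The few reads of Slc6a3 and Slc18a2 limit their precision most. Library and mouse cannot be tied, nor genotype separated from how far a dissection reached into neighbouring tissue. The antisense genes of Ddc and Slc18a2 are kept apart only as far as the counting used strand.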
